A study of Homo sapiens with 9 samples.

Results

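The sharp, strong H3K4me3 peaks were the rows of the H3K4me3 peak list on chromosomes 1 to 22 and X with a deposited fold enrichment of at least 13 and a width from 500 to under 1000 bp. They numbered 1226 of the 16997 H3K4me3 peaks on these chromosomes (7.21%) and of 17630 rows in the whole list. The list comes from CUT&Tag, in which an antibody brings a transposase to its target so that the fragments sequenced come from the target's surroundings. All 9 libraries were made from A549 cells, an established line from a human lung adenocarcinoma, with 3 replicates in each of 3 groups. HA-BAZ2B cells, which carry an HA epitope inserted at the 5′ end of their own BAZ2B gene, were profiled with an anti-HA antibody. Wild-type (WT) cells without the tag were profiled with the same antibody. The HA-BAZ2B cells were also profiled with an antibody against H3K4me3. The sources used here do not say whether the tagged line is a single clone. The labels' protocol also describes an siRNA transfection, which no sample label ties to a library. For H3K4me3 replicates 2 and 3 the antibody label ends in another number, and the titles were followed.

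H3K4me3 is a histone mark laid down around the starts of transcribed genes, mostly by SET1 and MLL complexes, and it flanks the nucleosome-poor stretch where transcription begins. Its domains differ in shape: wide ones are known from highly expressed and cell-identity genes, while short ones span few nucleosomes. BAZ2B is a bromodomain and PHD finger protein that works as the regulatory subunit of ISWI-type nucleosome remodelers, and the series title ties BAZ2 proteins to G-quadruplex DNA, a folded form of G-rich strands. Cells without an HA epitope show where the anti-HA assay gives peaks in the absence of the tagged protein.

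Each group has 1 peak list, and its positions and scores are those of a single library, filtered for peaks found in at least 2 replicates. No value has a replicate error, and no test between groups could be made. Shares are given with exact 95% binomial (Clopper-Pearson) intervals, which cover counting error over peaks only. Read depth is unknown. Peak names number the peaks of the source library, and at most 43.2% of the HA-BAZ2B peaks, 25.3% of the WT peaks and 80.5% of the H3K4me3 peaks so numbered were kept. A peak without a listed anti-HA peak may thus hold one that did not recur. The peak names of the WT and H3K4me3 libraries carry a tag that those of the HA-BAZ2B library lack, with no meaning stated. Its part in the results was not tested.

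In the H3K4me3 library, the sharp, strong peaks ran from a fold enrichment of 13.003 to 25.5, with a median of 14.4, where fold enrichment is the authors' ratio of the peak over the peak caller's background. Their median width was 828 bp, with quartiles of 711 and 914 bp. These values chose the peaks and are given as a description. They made up 69.9% of the 1754 H3K4me3 peaks with a fold enrichment of at least 13. The most enriched H3K4me3 peaks were therefore mostly under 1 kb wide, while the whole list had a median width of 1133 bp. They also made up 23.2% of the 5278 peaks of that width.

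**Figure D1:**
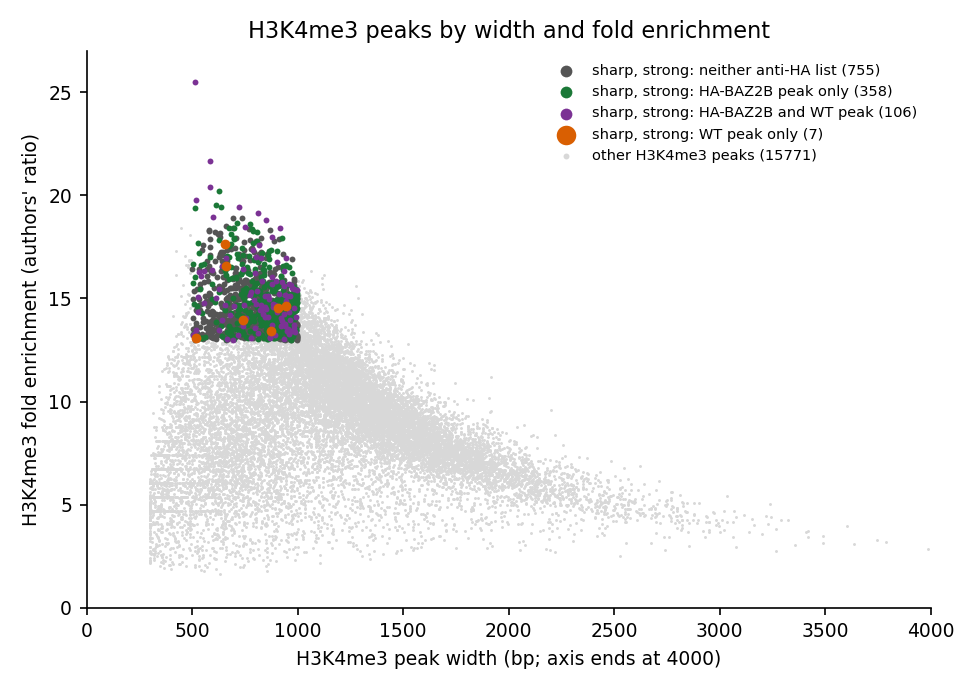
H3K4me3 peaks by width (bp, horizontal axis) and deposited fold enrichment (vertical axis), 1 point per peak. The 1226 sharp, strong peaks fill the block from 500 to under 1000 bp above a fold enrichment of 13, coloured by the anti-HA lists they overlap, and the other 15771 peaks are light grey. Beyond 1000 bp, the highest fold enrichment falls off with width.

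The bounds of the rule fell within a continuous range of values. The 3 members just inside the fold bound lay at 4q12, 2p23.2 and 22q13.1, with H3K4me3 fold enrichments of 13.003, 13.004 and 13.004. The 3 peaks just outside it lay at 12q24.11, 22q11.21 and 1p31.3, with 12.997, 12.996 and 12.99. The last of these carried an HA-BAZ2B peak of 14.3, and of the 3 just inside only the one at 2p23.2 carried one, at 4.44. At the width bounds, the narrowest members measured 500, 503 and 503 bp and the nearest peaks below them 499, 499 and 495 bp. At the upper bound, the widest members and the 3 nearest peaks above them, all of 1000 bp, differed by 1 bp.

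Sharp, strong H3K4me3 peaks carried an HA-BAZ2B peak about as often as H3K4me3 peaks in general. An HA-BAZ2B peak overlapped 464 of the 1226 by at least 1 bp (37.8%, 95% interval 35.1 to 40.6%), beside 39.6% of all H3K4me3 peaks. A share this close to that of the list is no result about these peaks. A WT peak overlapped 113 (9.22%, 7.66 to 10.98%), beside 13.1% of all H3K4me3 peaks. Both anti-HA lists met at 106 (8.65%, beside 11.3% of the list), HA-BAZ2B alone at 358 (29.2%, beside 28.3%) and WT alone at 7 (0.571%, beside 1.78%). The remaining 755 carried neither (61.6%, beside 58.7%). No member carried more than 1 peak of either anti-HA list.

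Against the peaks next to them in shape, the share of the sharp, strong peaks was higher in one direction and lower in the other. Of the 4052 peaks of the same width with a lower fold enrichment, 750 carried an HA-BAZ2B peak (18.5%, 17.3 to 19.7%). The share in sharp, strong peaks was higher than that by 19.3 percentage points (95% Newcombe interval 16.4 to 22.3). Of the 479 peaks above the same fold bound of 13 that were 1000 bp or wider (at most 1380 bp), 262 carried one (54.7%, 50.1 to 59.2%). Their H3K4me3 fold enrichment had a median of 13.7 and reached 16.3, beside 14.4 and 25.5 at the sharp, strong peaks. Against this wider set, the sharp, strong peaks differed by -16.9 percentage points (-22.0 to -11.6). The differences were 17.9 points when peaks were weighted to the same 100 bp bins of width, and -20.1 points (35.7 and 55.8%, over 1027 members) when weighted to the same fold enrichment. Strong peaks under 500 bp, of which there were 49, had a share of 28.6% (16.6 to 43.3%), whose difference from the sharp, strong ones has an interval that includes 0 (9.28 points, -4.82 to 20.3).

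For the WT list the shares lay closer together in percentage points. They were 9.22% at the sharp, strong peaks and 8.07% (7.25 to 8.95%) at peaks of the same width with lower fold enrichment, a difference of 1.147 points (-0.587 to 3.07). At the wider strong peaks the WT share was 15.7% (12.5 to 19.2%), and the sharp, strong peaks differed from it by -6.44 points (-10.3 to -2.99). The difference between sharp and weaker peaks of equal width was thus 19.3 points in the tagged cells' list and 1.147 points in the WT list, where its interval includes 0. Whether the lists differ in this was not tested. The WT list is the shorter (2381 peaks, beside 6788) and meets 13.1% of all H3K4me3 peaks, beside 39.6%. Differences in points therefore start from unlike levels in the 2 lists and do not show a trait of the tag.

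**Figure D2:**
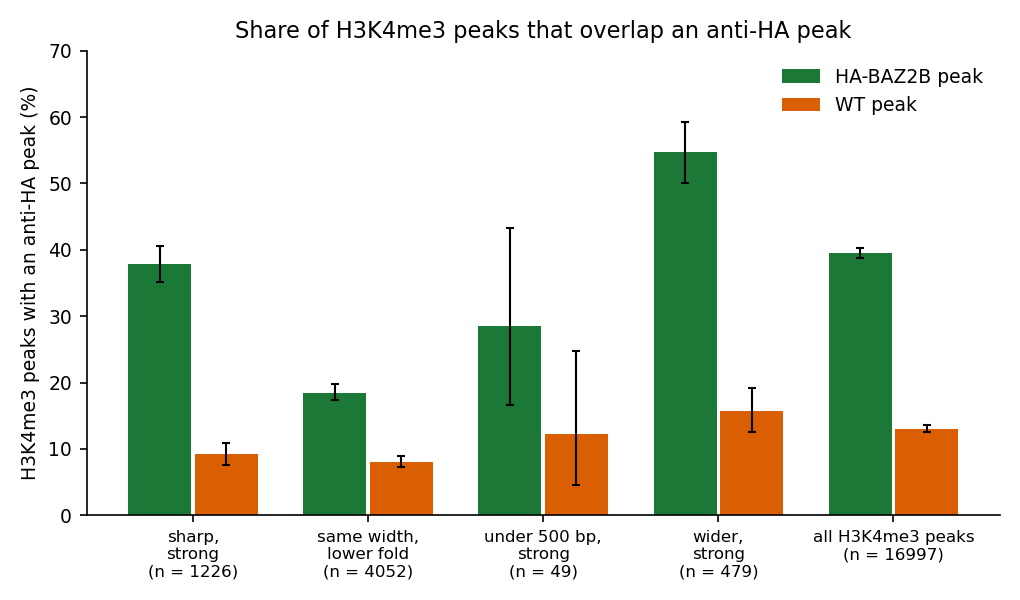
Share of H3K4me3 peaks (%) that overlap an HA-BAZ2B peak (green) or a WT peak (orange) by at least 1 bp, for sharp, strong peaks, 3 sets next to them in shape and all H3K4me3 peaks. Error bars are exact 95% binomial intervals over peaks. The HA-BAZ2B share of sharp, strong peaks, 37.8%, stands between the 18.5% of weaker peaks of the same width and the 54.7% of wider peaks above the same fold bound.

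Within the sharp, strong peaks, the HA-BAZ2B share was higher at larger widths and at higher fold enrichment. In bins of 100 bp from 500 bp upward it was 30.4% of 112 peaks, 28.7% of 167, 34.9% of 235, 40.5% of 353 and 43.7% of 359. The intervals of the narrowest and widest bins just overlapped (22.02 to 39.8% and 38.5 to 49.0%). By H3K4me3 fold enrichment it was 32.8% (28.6 to 37.3%) of the 463 peaks from 13 to 14 and 66.7% (48.2 to 82.0%) of the 33 peaks of 18 or more. The bins between gave 36.3, 41.2, 48.1 and 40%, so the order was not strict. The WT share had no such order in width, with 14.3% in the narrowest bin, 5.96% from 700 to under 800 bp and 10.3% in the widest. By fold enrichment it stayed between 6.91 and 13.2% up to a fold enrichment of 18 and reached 30.3% (15.6 to 48.7%) in the 33 strongest. All 10 of those 33 with a WT peak also carried HA-BAZ2B. Between the lowest and highest bins of fold enrichment, the share with HA-BAZ2B alone was 26.6 and 36.4%, and the share with both lists 6.26 and 30.3%. Much of the higher HA-BAZ2B share in the 33 thus lay at sites with a peak in untagged cells as well.

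The deposited −log10 q of a peak, its significance in the peak caller, joins height with width and depth. In every bin of −log10 q from 40 to 100, sharp, strong peaks had a lower HA-BAZ2B share than the other H3K4me3 peaks, which were wider, and the intervals did not overlap. From 50 to 60, where both sets are well filled, 97 of 265 sharp, strong peaks carried HA-BAZ2B (36.6%, 30.8 to 42.7%), beside 1374 of 2438 others (56.4%, 54.4 to 58.3%). Their median widths were 865 and 1375 bp. From 20 to 30 the shares were 21.9% (12.5 to 34.0%) and 19.2% (17.4 to 21.1%), with overlapping intervals. Against the other peaks weighted to the members' −log10 q, the HA-BAZ2B share of the sharp, strong peaks differed by -16.4 points (37.8 and 54.2%) and their WT share by -8.24 points (9.22 and 17.5%).

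Over the plane of width and strength, the HA-BAZ2B share was higher in each wider bin at every strength, while its order in strength was not strict. From 500 to under 750 bp the HA-BAZ2B share was 30.2% at a fold enrichment of 13 or more, beside 17.01% from 11 to 13, 18.2% from 9 to 11, 10.2% from 7 to 9 and 11.1% under 7. From 750 to under 1000 bp these shares were 41.6, 26.9, 22.3, 19.4 and 20.2%. Across the weakest H3K4me3 peaks, with a fold enrichment under 7, the HA-BAZ2B share ran from 6.65% under 500 bp to 58.1% at 1500 bp or more. Fold enrichment within that bin and −log10 q were not held equal across widths. The WT share from 500 to under 750 bp was 8.98, 4.08, 8.87, 10.02 and 8.59% in the same bins of strength, with no steady order.

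**Figure D3:**
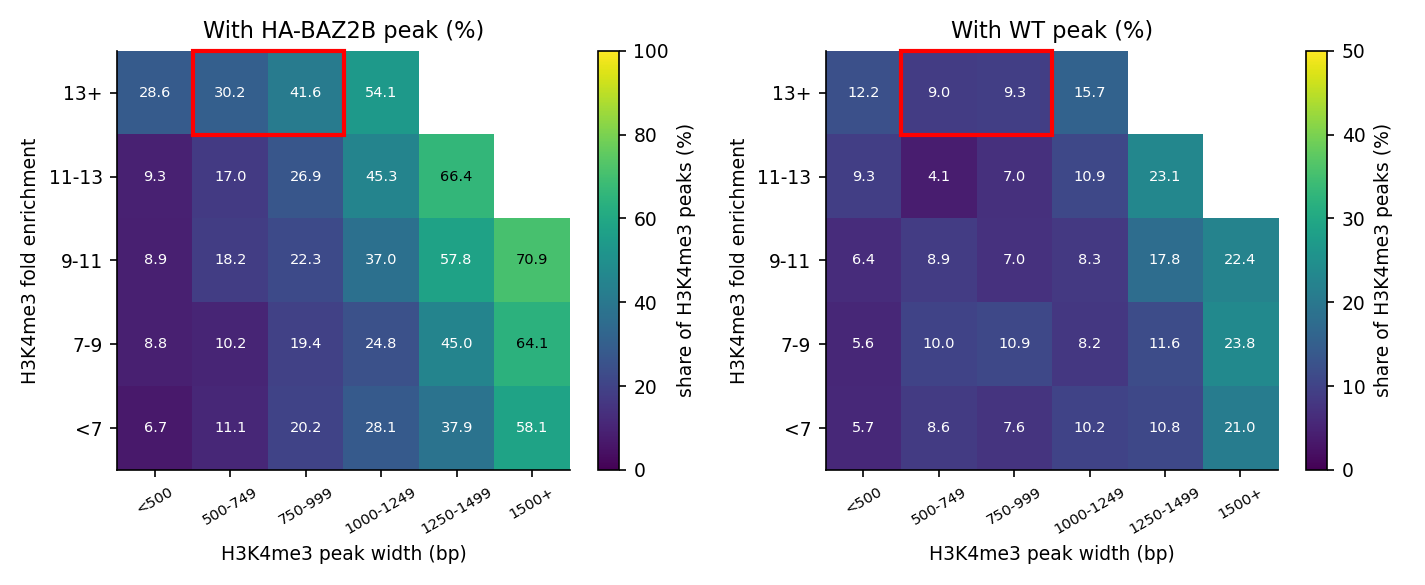
Share of H3K4me3 peaks (%, colour and printed number) with an HA-BAZ2B peak (left; colour scale to 100%) or a WT peak (right; colour scale to 50%), by H3K4me3 width (horizontal) and H3K4me3 fold enrichment (vertical). Cells with fewer than 20 peaks are blank, and the red frame marks the sharp, strong peaks, whose HA-BAZ2B shares were 30.2 and 41.6%.

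Where an HA-BAZ2B peak was present, it stood high in its own list. The 464 HA-BAZ2B peaks on sharp, strong H3K4me3 peaks had a median fold enrichment of 11.6 (quartiles 9.36 and 13.4, range 4.01 to 18.99), beside a median of 8.16 for the whole HA-BAZ2B list. Their median peak exceeded 88.9% of that list. On peaks of the same width with lower H3K4me3 fold enrichment, the median HA-BAZ2B fold enrichment was 6.34, and on wider strong peaks it was 11.9. The 113 WT peaks on sharp, strong H3K4me3 peaks had a median fold enrichment of 7.15 (quartiles 6.19 and 8.58, range 4.32 to 24.2), beside 6.43 for the whole WT list. Fold enrichments of different lists are not on a shared scale and do not measure a difference between the lines.

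Seen from the anti-HA side, the tallest HA-BAZ2B peaks lay on sharp, strong H3K4me3 peaks. These held 464 of 6788 HA-BAZ2B peaks (6.84%) but 17 of the 20 with the highest fold enrichment (85.0%, 62.1 to 96.8%), 66 of the top 100 (66.0%, 55.8 to 75.2%) and 187 of the top 500 (37.4%, 33.1 to 41.8%). Ranked by −log10 q, which also depends on width, they held 3 of the top 20, 11 of the top 100 (11%, 5.62 to 18.8%) and 44 of the top 500 (8.80%). In the WT list they held 113 of 2381 peaks (4.75%), 8 of the top 20 by fold enrichment (40%, 19.1 to 63.9%), 16 of the top 100 and 40 of the top 500 (8%). The members were chosen by a fold enrichment, and fold enrichment runs together in the HA-BAZ2B and H3K4me3 lists, so the ranking by fold enrichment is not independent of the choice of members.

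The member with the tallest HA-BAZ2B peak lay at 9q22.31 (chromosome 9, 95639848 to 95640432), 585 bp wide, with fold enrichments of 18.99 for HA-BAZ2B, 5.20 for WT and 20.4 for H3K4me3. Its HA-BAZ2B summit lay 1 bp from the H3K4me3 summit and its peak ranked 1 of the whole HA-BAZ2B list, while its WT peak ranked 1843 of 2381. The peak at 20q11.21 (chromosome 20, 30101836 to 30102763) followed with 18.6 for HA-BAZ2B and 17.9 for H3K4me3, with no WT peak. At 7q11.21 (chromosome 7, 64126352 to 64126979) the values were 17.98 and 20.2, again with no WT peak, and the summits were 10 bp apart. Next was 19p13.3 (chromosome 19, 5790415 to 5791290), with 17.7 for HA-BAZ2B, 7.15 for WT and 16.02 for H3K4me3. The peak at 20p13 (chromosome 20, 1757283 to 1758145) had its HA-BAZ2B and H3K4me3 summits on the same base, with 17.6 and 17.3. These 5 sites, chosen for their HA-BAZ2B values, differed in WT, which had a peak at 9q22.31 and 19p13.3 and none at the other places.

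The rest of the 10 were at 8q21.13 (chromosome 8, 82597988 to 82598662; 17.3 for HA-BAZ2B), 1q32.1 (chromosome 1, 201798170 to 201799047; 17.3), 1q21.1 (chromosome 1, 142890481 to 142891203; 16.9), and at 2 places on chromosome 19: 19p12 (24269839 to 24270650; 17.1) and 19q13.2 (41945148 to 41945997; 17.3). Of the 10, 5 carried a WT peak, with fold enrichments from 5.20 to 9.14, beside 106 of all 464 members with an HA-BAZ2B peak. The 10 were spread over 6 chromosomes. The one at 19p12 lay in a band of variable heterochromatin and the one at 1q21.1 lay 290 kb from such a band.

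The 10 members with the highest H3K4me3 fold enrichment all carried an HA-BAZ2B peak (interval 69.2 to 100%), beside 39.6% of all H3K4me3 peaks. Of these 10, 6 also carried a WT peak (60%, 26.2 to 87.8%), beside 13.1% of all, and 4 were among the 10 with the tallest HA-BAZ2B peaks. Of the 50 members highest in H3K4me3, 30 carried HA-BAZ2B (60%) and 11 WT (22%). At the head stood 3p13 (chromosome 3, 73159806 to 73160319), 514 bp wide, with fold enrichments of 9.08 for HA-BAZ2B, 20.05 for WT and 25.5 for H3K4me3. It was followed by 12q24.33 (chromosome 12, 133841430 to 133842014), 9.88 kb from the end of its chromosome, with 8.89, 24.2 and 21.6. These were ranks 2488 and 2685 of the HA-BAZ2B list but ranks 2 and 1 of the WT list. The peaks at 9q22.31 and 7q11.21, described above, came next with the reverse pattern.

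Of the other 6, some stood at the head of neither anti-HA list. The peaks at 3q23 (chromosome 3, 139396266 to 139396878), 3q28 (chromosome 3, 188740511 to 188741147) and 17q24.2 (chromosome 17, 66409746 to 66410259) had no WT peak. Their HA-BAZ2B fold enrichments were 11.02, 7.58 and 8.52 (ranks 1022, 4037 and 3051), and their H3K4me3 fold enrichments 19.5, 19.4 and 19.4. The next highest with HA-BAZ2B alone was 12q13.13 (chromosome 12, 51818514 to 51819226), outside the 10, with 14.9 for HA-BAZ2B and 18.7 for H3K4me3. At 9q13 (chromosome 9, 66458089 to 66458604), 558 kb from a heterochromatic band, HA-BAZ2B stood at 9.47, WT at 8.19 and H3K4me3 at 19.8, and both anti-HA summits lay 165 to 170 bp to the same side of the H3K4me3 summit. At 1q21.1 and 19p12, HA-BAZ2B was 16.9 and 17.1, WT 9.14 and 7.09, and H3K4me3 19.4 and 19.1.

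**Figure D4:**
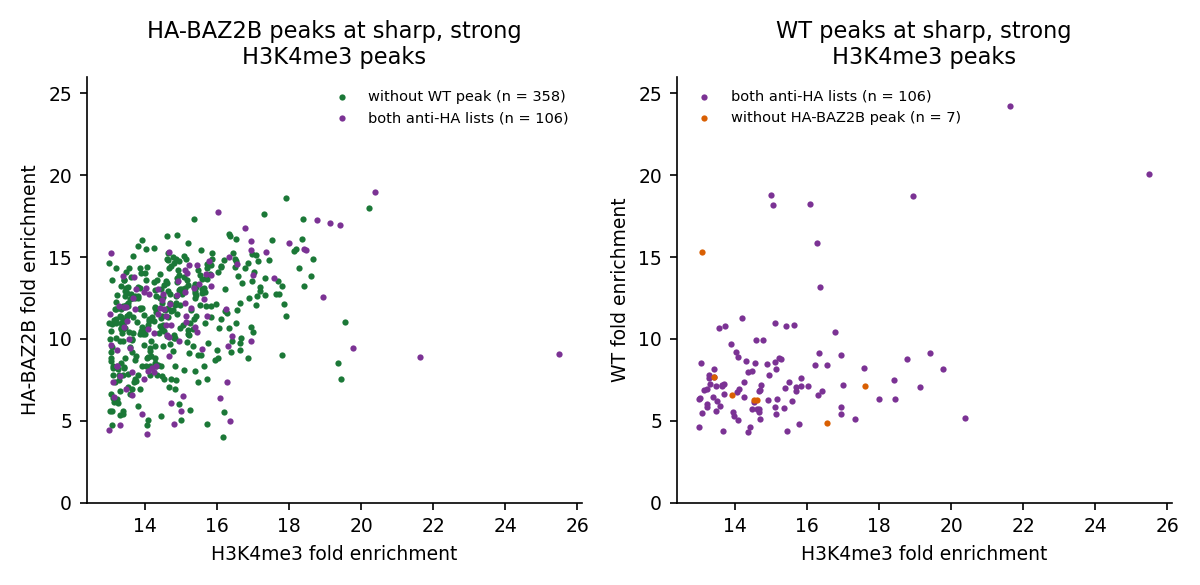
Fold enrichment of the HA-BAZ2B peak (left, 464 members) and of the WT peak (right, 113 members) against the H3K4me3 fold enrichment of the same sharp, strong peak, 1 point per peak and all values the authors' ratios. HA-BAZ2B values run from 4.01 to 18.99, while most WT values lie under 11.3 and 9 stand from 13.2 to 24.2.

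Across the members with an HA-BAZ2B peak, ranks of its fold enrichment and of the H3K4me3 fold enrichment had a Spearman rho of 0.39 (464 peaks), and ranks of width 0.61. The corresponding values at the 113 with a WT peak were 0.19 and 0.05. In the other H3K4me3 peaks with an HA-BAZ2B peak, rho was 0.75 and 0.80 over 6260 peaks. These are descriptions across peaks that share their libraries, and the rule itself narrows the range of both H3K4me3 measures, which lowers a rho.

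The HA-BAZ2B peaks sat centrally on the sharp, strong H3K4me3 peaks. Their summits lay a median of 37 bp from the H3K4me3 summit (quartiles 16 and 73 bp), and 288 of 464 (62.1%, 57.5 to 66.5%) lay within 50 bp. At peaks of the same width with lower fold enrichment the median was 71 bp, and 287 of 750 (38.3%, 34.8 to 41.9%) lay within 50 bp. At the wider strong peaks the median was again 37 bp, and 60.7% of 262 (54.5 to 66.6%) lay within 50 bp, so both strong sets had the same median distance. WT summits lay a median of 50 bp from the H3K4me3 summit, with 58 of 113 within 50 bp (51.3%, 41.7 to 60.8%), beside a median of 66 bp and 131 of 327 (40.1%, 34.7 to 45.6%) at peaks of the same width with lower fold enrichment. The HA-BAZ2B peaks were also taller at the sharp, strong peaks (median fold enrichment 11.6, beside 6.34 at weaker peaks of the same width), and the part of peak height in the distances was not tested.

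**Figure D5:**
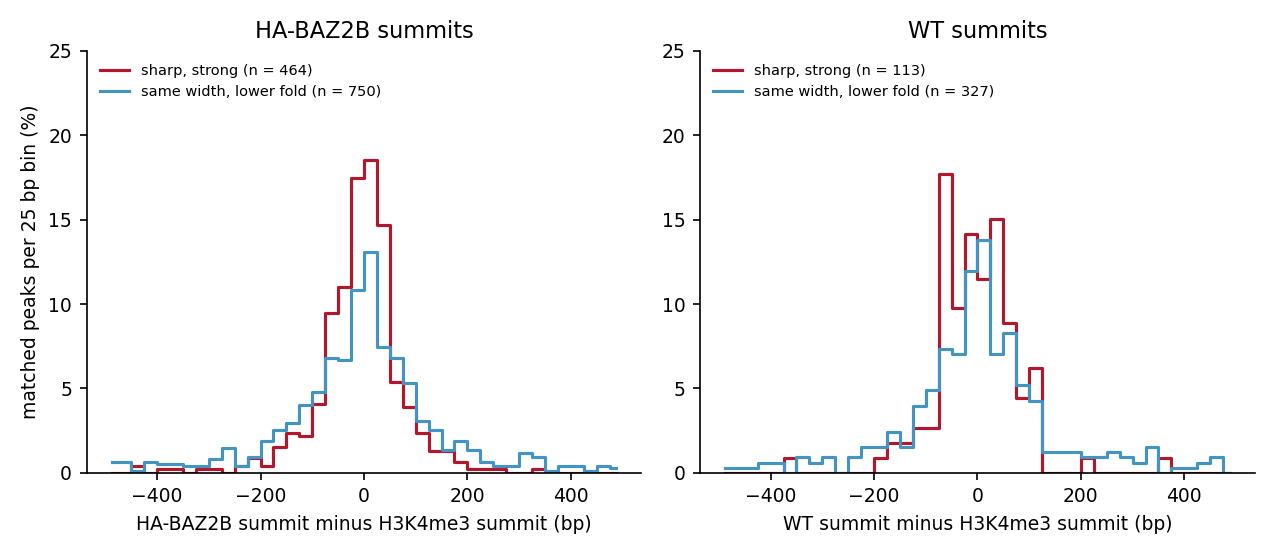
Distance (bp) from the H3K4me3 summit to the HA-BAZ2B summit (left) and the WT summit (right), in 25 bp bins as a percentage of matched peaks, for sharp, strong H3K4me3 peaks (red; 464 and 113) and peaks of the same width with lower fold enrichment (blue; 750 and 327). Distances beyond 500 bp are not drawn. The medians of the absolute distance were 37 and 71 bp for HA-BAZ2B and 50 and 66 bp for WT.

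The anti-HA peaks were narrower than the H3K4me3 peaks they lay on. HA-BAZ2B peaks had a median width of 691 bp on sharp, strong peaks, a median of 0.835 times that of the H3K4me3 peak, and covered a median of 80.9% of it. In 76 of the 464 the HA-BAZ2B peak was the wider. WT peaks had a median width of 472 bp, 0.587 times that of the H3K4me3 peak, and covered 56.9%. The width ratio of HA-BAZ2B was 0.710 at weaker peaks of the same width and 0.884 at wider strong ones, and that of WT was 0.774 and 0.453. The WT peak was thus about equally wide at sharp and at wider strong peaks, with medians of 472 and 497 bp, while the HA-BAZ2B peak was 691 and 970 bp wide.

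Most H3K4me3 peaks with a WT peak also carried HA-BAZ2B in the sets given here, but not in every bin of width and strength. With a fold enrichment under 7 and a width under 500 bp, 8 of 46 did. Among the sharp, strong peaks it was 106 of 113 (93.8%, 87.7 to 97.5%), beside 1921 of 2224 in the whole list (86.4%, 84.9 to 87.8%). It was 69 of 75 at wider strong peaks (92%, 83.4 to 97.01%) and 195 of 327 at weaker peaks of the same width (59.6%, 54.1 to 64.995%). Without a WT peak, 32.2% (29.4 to 35.0%) of 1113 sharp, strong peaks carried HA-BAZ2B, beside 32.5% (31.8 to 33.3%) in the whole list. HA-BAZ2B peaks with and without a WT peak were of like height, with median fold enrichments of 11.7 (median's interval 10.7 to 12.4) and 11.6 (11.2 to 11.99). Their median widths were 651 and 702 bp.

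The 113 WT peaks were of unlike height. At 104 members the WT fold enrichment ran from 4.32 to 11.3 with a median of 7.06, and the HA-BAZ2B peaks there had a median of 11.9. The other 9 were picked with their values known, by applying the fold of 13 to the WT list, and in them it ran from 13.2 to 24.2 with a median of 18.2. The 8 HA-BAZ2B peaks at these 9 members had a median of 6.96 and ranged from 4.97 to 12.5. Of the 9, 6 lay within 1 Mb of a chromosome end and 0 that close to a heterochromatic band, beside 10 of the 104 within 1 Mb of either.

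Among those 9, the strongest were the peaks at 12q24.33 and 3p13 given above. At Xq28 (chromosome X, 155259883 to 155260479), 10.1 kb from the end, the values were 12.5 for HA-BAZ2B, 18.8 for WT and 18.9 for H3K4me3. At both ends of chromosome 1, at 1p36.33 (chromosome 1, 9898 to 10439) and 1q44 (chromosome 1, 249239953 to 249240478), HA-BAZ2B stood at 6.41 and 6.52, WT at 18.2 and 18.2, and H3K4me3 at 16.1 and 15.1. Away from the ends, 1p35.2 (chromosome 1, 31904515 to 31905126) had 5.61 for HA-BAZ2B, 18.8 for WT and 15.01 for H3K4me3. At 16p13.3 (chromosome 16, 1075166 to 1075696) these were 7.41, 15.8 and 16.3, and at 4q35.2 (chromosome 4, 191043793 to 191044386), 110 kb from the end, 4.97, 13.2 and 16.4. All 9 were 514 to 612 bp wide in the H3K4me3 list, while their HA-BAZ2B peaks were 307 to 413 bp wide and their WT peaks 455 to 1058 bp. At these places the anti-HA assay gave tall peaks in cells without the tag.

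Of the 9, only 12p13.33 (chromosome 12, 95228 to 95745) had no HA-BAZ2B peak, with 15.3 for WT and 13.1 for H3K4me3. It was one of the 7 members with a WT peak alone. The other 6 had WT fold enrichments from 4.89 to 7.65 and lay at 12q21.1 (chromosome 12, 74902650 to 74903306), 19q13.31 (chromosome 19, 44905198 to 44905856), Xp11.23 (chromosome X, 48595428 to 48596372), 19q13.41 (chromosome 19, 52531246 to 52532154), 10q24.32 (chromosome 10, 104613827 to 104614568) and 4p12 (chromosome 4, 47464978 to 47465850). Their WT peaks ranked from 578 to 1998 in a list of 2381.

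The 755 members without any anti-HA peak were somewhat narrower and lower in H3K4me3 than those with HA-BAZ2B alone, by medians whose intervals did not overlap. Their median H3K4me3 fold enrichment was 14.2 (14.1 to 14.3) and their median width 816 bp (803 to 828 bp), beside 14.6 (14.4 to 14.8) and 853 bp (834 to 865 bp) for the 358 with HA-BAZ2B alone and 14.8 and 845 bp for the 106 with both. Their −log10 q had medians of 49.4, 58.5 and 61.9 in the same order. The highest of the 755 was at 11p14.3 (chromosome 11, 22850863 to 22851555), with an H3K4me3 fold enrichment of 18.9 and a −log10 q of 100.3, above the upper quartile of −log10 q of the members with both anti-HA peaks (80.1). It was followed by 15q22.2 (chromosome 15, 59949111 to 59949847), with 18.9, 21p11.2 (chromosome 21, 9704252 to 9704912), with 18.5, 8q13.2 (chromosome 8, 70269033 to 70269727), with 18.4, and 3q25.32 (chromosome 3, 157815511 to 157816281), with 18.4. Of the 50 members with the highest H3K4me3 fold enrichment, 20 carried no listed anti-HA peak (40%), beside 61.6% of all members and 58.7% of the whole list.

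Sharp, strong peaks lay far from other H3K4me3 peaks. The gap to the nearest one was a median of 39396 bp (median's interval 36938 to 42997 bp), beside 22427 bp (21183 to 24120 bp) for weaker peaks of the same width, 37355 bp (33562 to 42932 bp) for wider strong ones and 30128 bp for all other H3K4me3 peaks. The intervals of both strong sets overlapped. Only 4 of 1226 had a neighbour within 2 kb (0.326%, 0.0890 to 0.833%), beside 465 of 4052 weaker peaks of the same width (11.5%, 10.5 to 12.5%) and 0 of 479 wider strong ones, which by 3 counts of the total allows a share of up to 0.626% (exact upper bound 0.767%). A close neighbour was thus seldom seen at strong peaks of either width. Their summit lay a median of 8.31% of the width from the centre, beside 11.6% at weaker peaks of the same width and 6.88% at wider strong ones.

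By chromosome band, sharp, strong peaks lay less often in light bands and more often near heterochromatic bands than the pool of all other H3K4me3 peaks. The intervals against this pool did not overlap, and the differences were a few percentage points. Near heterochromatic bands, the intervals did overlap those of weaker peaks of the same width and of wider strong peaks. Light, gene-rich bands held 55.9% (53.0 to 58.7%) of the sharp, strong peaks and 61.3% (60.5 to 62.1%) of all others, and the darkest bands 6.69% and 5.66%. Wider strong peaks had nearly the same light-band share, 55.1% (50.5 to 59.6%). At weaker peaks of the same width it was 61.1% (59.6 to 62.6%). Within 1 Mb of a centromeric, variable heterochromatic or stalk band lay 39 (3.18%, 2.27 to 4.32%), beside 1.97% (1.76 to 2.20%) of the others, and within 1 Mb of a chromosome end 33 (2.69%, 1.86 to 3.76%), beside 3.44%. Together these 72 carried HA-BAZ2B in 35 cases (48.6%, 36.7 to 60.7%) and WT in 16 (22.2%, 13.3 to 33.6%). The 1154 elsewhere did so in 37.2% (34.4 to 40.04%) and 8.41% (6.87 to 10.2%). The 33 near an end had a WT share of 30.3% (15.6 to 48.7%) and the 39 near a heterochromatic band 15.4% (5.86 to 30.5%). Of the 8 within 100 kb of an end, 5 carried a WT peak (62.5%, 24.5 to 91.5%), all 5 with a fold enrichment above 13. Over all H3K4me3 peaks, wherever they lay, 39.6% carried HA-BAZ2B and 13.1% WT. These shares were not computed for the other H3K4me3 peaks near ends or heterochromatic bands. The values near them are thus not shown to be particular to sharp, strong peaks.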

How the data were processed

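Reads were aligned with Bowtie2 2.4.5, with Picard, SAMtools 1.15.1, bedtools and MACS2 2.1.4 also named, on hg19 (dm6 is named too), per the submitters' processing notes. The sources used here do not give peak caller settings, a control library or a use of the Drosophila spike-in for scaling. Peaks present in at least 2 replicates were kept, per the labels, with rows taken from the biggest replicate file, which the peak names show to be replicate 3 for HA-BAZ2B, 2 for WT and 1 for H3K4me3. The deposited fold enrichment is the authors' ratio over the caller's own background for that library, and the deposited −log10 q is the authors' significance. The deposited score restates it and was not used. Positions are hg19, printed counting from 1.

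Overlaps of at least 1 bp, shares, medians and ranks were computed with pandas 2.3.3, scipy 1.17.1 and numpy 2.4.6 under Python 3.11.15, and drawn with matplotlib 3.10.9. Where several anti-HA peaks met a peak, the highest was taken. The overlap step was tested on simulated data and against bedtools 2.31.1. Intervals of medians are exact binomial. Bands and chromosome lengths of hg19 came from circlize 0.4.16. Matching used bins of 100 bp, 1 fold unit or 10 units of −log10 q with at least 20 other peaks. The members and sets were chosen with earlier results of these data known. Regions named were the 10 highest members by H3K4me3 and by HA-BAZ2B fold enrichment, the 5 highest of each overlap class (all 7 for WT alone) and the 3 nearest each bound, of which those in more than 1 group are printed once. A genome or gene annotation of hg19 was not used here, so no genes or sequences are given. Alternatives tried were another overlap, other bounds, stricter q and leaving out chromosome 19 or members near ends.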

Additional observations from a re-analysis of the deposited data

Results flagged for a closer look

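H3K4me3 rows that the comparisons leave out also held peaks within the bounds. On contigs outside the assembled chromosomes, 37 of 610 H3K4me3 rows (6.07%, 4.31 to 8.26%) met the fold and width bounds, which is above the 3 that a count of 0 allows. Their fold enrichment ran from 13.1 to 17.3. Of the 37, 23 carried an HA-BAZ2B peak (62.2%) and 4 a WT peak (10.8%), beside 37.8 and 9.22% of the sharp, strong peaks on chromosomes and 39.6 and 13.1% of all H3K4me3 peaks there. Shares over all 610 contig rows are not given here, so these values are not shown to be particular to the 37. Of the 37, 22 lay on alternative haplotypes of chromosome 6, of which 12 carried an HA-BAZ2B peak and 0 a WT peak. The other 15 lay on the remaining contigs, of which 11 carried an HA-BAZ2B peak and 4 a WT peak. Haplotype contigs repeat sequence of the main chromosome, so these rows are not further independent sites. No group had a value per sample, so samples could not be compared for outliers.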

How the results depend on the processing

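Of 56 alternative values, 44 stayed within the 95% interval of the value as reported and 12 moved further. Only the differences of shares could turn direction, since shares and medians cannot be negative, and none of these differences did. A bound of 20 on the H3K4me3 −log10 q left out no member, so the values under it could not move. The HA-BAZ2B share moved to 34.1% at a fold enrichment of at least 12, to 44.9% at 15 and to 41.8% at a width of 400 to under 1200 bp. The WT share moved to 12.4% at a fold enrichment of at least 15, to 11.02% at 400 to under 1200 bp and to 5.95% when WT peaks had to cover 50% of the H3K4me3 peak. With that coverage the HA-BAZ2B difference from weaker peaks of the same width was 22.4 points. The median HA-BAZ2B fold enrichment was 11.1 at a fold enrichment of at least 12 and 12.9 at 15, where the median summit distance was 29.5 bp. With the HA-BAZ2B list limited to the length of the WT list, which was chosen after seeing the data, 28.9% of members carried an HA-BAZ2B peak by highest fold enrichment and 11.6% by highest −log10 q, beside the WT share of 9.22%. How far the HA-BAZ2B share exceeds the WT share thus depends on how long the HA-BAZ2B list is and how it is ranked. Leaving out replicates was not possible, since no list gives values per replicate. No paired analysis was possible because the result comes from no test and the lists hold no value per replicate. The planned sequence features and gene starts were not run, as no hg19 genome or annotation was used. Depth is unknown and limits how a missing anti-HA peak can be read.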

Other observations

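The sharp, strong peaks made up between 4.79% (chromosome 21, 8 peaks) and 9.16% (chromosome 3, 84 of 917) of a chromosome's H3K4me3 peaks. Their HA-BAZ2B share ran from 27.6% (chromosome 10, 16 of 58) to 50.0% (chromosome 18, 7 of 14), beside 36.5 and 31.3% over all H3K4me3 peaks of these chromosomes. On chromosome 17, whose H3K4me3 peaks had the highest HA-BAZ2B share of the 23 chromosomes (49.7%) and a WT share of 20.4%, the sharp, strong peaks had 45.8% (32.7 to 59.2%) and 5.08% (1.06 to 14.1%). On chromosome 19 they had 42.7% and 15.9% (8.72 to 25.6%), beside 43.01 and 18.8% over all H3K4me3 peaks there. On chromosome 8, 0 of 48 carried a WT peak, which by 3 counts of the total allows a share of up to 6.25% (exact upper bound 7.40%), beside 13.6% over all H3K4me3 peaks of that chromosome. These chromosomes were picked with their values known, and no test was made.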
